A study of Mus musculus with 12 samples.

Results

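Mouse bone marrow-derived mast cells (BMMCs) given both the antigen DNP-HSA and SiO2 nanoparticles were compared with blank cells, which received neither. The comparison used every library that the labels place in these groups, 3 of DNP-HSA+SiO2 and 3 of blank, 6 of the 12 libraries of the series, and all 12862 expressed genes of the 28852 in the table, whether higher or lower. The remaining libraries, 3 of DNP-HSA alone and 3 of SiO2 alone, entered the same statistical fit and are set beside the combined treatment at the end. All cells were grown from BALB/c bone marrow in medium with IL-3 and SCF. The labels give no age or sex of the mice, and neither the doses and exposure time used for sequencing nor any loading of the cells with anti-DNP IgE are stated in the sources used here. Libraries are named by their labels: every group has an unnumbered library and libraries 1 and 2. Nothing says that these are separate cultures, so p-values measure only the spread between these libraries, which may be technical.

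Mast cells carry the high-affinity receptor for IgE, FcεRI, on their surface. DNP-HSA is a protein decorated with many dinitrophenyl groups, so that it can bring together anti-DNP IgE molecules held by these receptors. The clustered receptors start a kinase cascade that empties preformed granules within minutes, makes lipid mediators, and switches on new transcription through the MAP kinase, calcium-NFAT and NF-κB routes. The first genes to respond are immediate early transcription factors, followed by genes for cytokines, chemokines and the phosphatases that shut the MAP kinases off again. Silica particles are known to be taken up by phagocytic cells and to activate the NLRP3 inflammasome in macrophages.

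Levels are given as CPM, estimated counts brought to a common library size with TMM factors, always in the order unnumbered library, 1, 2. The estimated counts of the 6 libraries totalled 55737606 to 67839507. Mast cell markers were high in every library as a sum. Over the 14 genes of the lineage list, FPKM was 18250 to 19610 in the blank group and 16560 to 17470 in the DNP-HSA+SiO2 group. Every treated library thus lay below every blank one in this sum of unscaled FPKM. Cpa3, Fcer1a, Kit and Gata2 were above 100 FPKM throughout, and Cpa3 was the largest part of the sum, at 7353 to 9198 FPKM. Some members were lower, such as Mitf at 18.75 to 27.0 FPKM and Il3ra at 11.5 to 23.8 FPKM. Hdc was at 5.88 to 28.1 FPKM in blank and 34.3 to 366 FPKM in DNP-HSA+SiO2. Without TMM, library totals alone place the median log2 change of all genes at -0.35, against -0.01 with TMM, and changes below are relative to the latter. The libraries did differ within groups in markers of other cells. The basophil protease gene Mcpt8 was at 22.7 and 21.5 FPKM in the libraries without a number of blank and DNP-HSA+SiO2 and at 0.774 to 3.28 FPKM in the other 4. Lyz2, a myeloid gene, was at 3.04 and 3.62 FPKM in these same libraries. It was at 74.6 FPKM in blank 1 and 87.9 in DNP-HSA+SiO2 2, the libraries in which S100a8 reached 6.91 and 7.19 FPKM, and at 24.97 and 17.9 FPKM in blank 2 and DNP-HSA+SiO2 1. The macrophage and neutrophil list (18 genes) summed to 19.3 to 127 FPKM in blank and 19.2 to 148 FPKM in DNP-HSA+SiO2, the basophil list (6 genes) to 161 to 178 and 140 to 176 FPKM, the T and B cell list (7 genes) to 2.85 to 4.17 and 2.32 to 3.92 FPKM, and the dendritic cell and eosinophil list (12 genes) to 4.03 to 19.6 and 3.74 to 23.5 FPKM. The erythroid and megakaryocyte list (12 genes) summed to 597 to 798 and 358 to 746 FPKM and the stromal and endothelial list (10 genes) to 84.1 to 113 and 70.2 to 113 FPKM. Most of the first sum was Itga2b, at 580 to 762 and 348 to 693 FPKM, and no other member exceeded 22.9 FPKM (Gp9). Most of the second was Pecam1, at 82.9 to 113 and 68.2 to 113 FPKM, and no other member exceeded 1.48 FPKM (Col3a1). Cd200r3 likewise made up most of the basophil sum, at 120.6 to 139.5 and 116.8 to 150.9 FPKM. Ranges of the groups overlapped for each of these 6 lists, and no tested member of them passed the test. Their part in the results was not tested. The neutrophil genes Elane and Ltf were at 0 in 4 of the 6 libraries. Mitochondrial genes took 3.50% to 5.16% of the counts in blank and 2.83% to 5.31% in DNP-HSA+SiO2.

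Compared with the blank group, 71 genes rose (0.552% of 12862) and 3 fell (0.0233%) in the DNP-HSA+SiO2 group at an adjusted p under 0.05. Log2 changes of the risen genes with counts in blank ran from 1.21 to 8.74, with a median of 3.94 over all risers, while Gm12167 had no blank counts and so no measured change, only a lower bound. The 3 falls lay between -1.57 and -1.65. Without adjustment, 894 genes (6.95%) were higher and 653 (5.08%) lower at p under 0.05. That split turned with the scaling, to 514 higher and 1849 lower with library totals only, and to 472 and 2085 with limma on log2(FPKM + 1). TMM factors ran from 1.12 to 1.22 in the blank libraries and from 0.808 to 1.02 in DNP-HSA+SiO2. After TMM scaling, the 3 libraries of one group lay wholly above the 3 of the other for 1103 genes that were higher (8.58%) and 1142 that were lower (8.88%). All 74 called genes had libraries that did not overlap. Their number depended on single libraries: 9 genes rose without the unnumbered blank library, 7 without blank 1, 11 without blank 2, 31 without the unnumbered DNP-HSA+SiO2 library, 10 without DNP-HSA+SiO2 1 and 142 without DNP-HSA+SiO2 2. The genes that passed in each of these 6 fits were Egr3, Nr4a1, Nr4a2, Nr4a3, Fosl2 and Per1. Of the 71 risers, 41 passed in only 1 of these fits, Il13, Ccl7 and Egr2 among them. Another 2, Klf4 and 4932438H23Rik, passed in none. Among the libraries numbered 1 and 2 alone, 19 genes rose, 15 of them among the 71, and 3 fell, none of them among the 3 above, and the log2 change of each of the 74 kept its sign. RNA-seq on bulk cells cannot tell fewer responding cells from less RNA per cell.

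Of the 71 genes that rose, 62 are protein coding, and the median length of these genes from first to last base was 12.5 kb (quartiles 5.96 to 20.1 kb) with a median of 5 exons in the longest model, beside 23.1 kb (9.96 to 51.1 kb) and 9 exons over the 10521 coding genes tested. Genes lower at an unadjusted p under 0.05 were also short, with a median of 13.8 kb and 5 exons over 577 coding genes, and those higher at that level had a median of 20.1 kb over 699. Mean levels of the risers in blank cells ran from no counts for Gm12167 to 593 CPM for Cd93, with a median of 15.1 CPM beside 22.7 CPM over all genes tested. Within the DNP-HSA+SiO2 group the unnumbered library was the highest for 51 of the 71 risen genes and library 2 the lowest for 56.

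The immediate early transcription factors held the most risers of any of the 43 lists described. All 30 members passed the filter on low values, 13 rose and 0 fell, and their median log2 change was 3.37, beside -0.01 over all genes tested. Over all genes 0.552% rose and 0.0233% fell, which are the shares to set beside the counts of every list below. The lists were chosen with earlier results of these data known, so their counts describe the members and support nothing by themselves. The NR4A orphan nuclear receptors, which need no known hormone to act, were among the largest changes in the data. Nr4a3 (chr4:48045153-48086447 on GRCm38) was at 10.2, 9.84 and 7.67 CPM in blank and 4351, 1906 and 1219 CPM in DNP-HSA+SiO2. The lowest treated library was 119 times the highest blank library, the widest gap of any risen gene with counts in blank, and the log2 change was 8.07 ± 0.78 (SE) at adjusted p = 0.00181. Nr4a1 (chr15:101254269-101274795) went from 46.4, 20.4 and 60.1 CPM to 8424, 5664 and 5181 CPM, a log2 change of 7.25 ± 0.74 (SE) at adjusted p = 0.00251. Nr4a2 (chr2:57106830-57124003) was at 7.40, 8.31 and 13.6 CPM in blank cells and 1612, 1504 and 852 CPM in treated cells, and it passed with a log2 change of 7.08 ± 0.60 (SE) and an adjusted p of 0.00105. For Nr4a1 and Nr4a2 the lowest treated library was 86.2 and 62.6 times the highest blank one.

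Of the EGR zinc finger factor genes, Egr2, Egr3 and Egr4 rose. Egr3 (chr14:70077203-70082614), already present in blank cells at 73.6, 31.5 and 73.4 CPM, reached 8754, 7485 and 6595 CPM, with treated libraries close to each other (log2 change 7.00 ± 0.60, SE, adjusted p = 0.00105). Egr2 rose from 2.31, 4.33 and 18.6 CPM to 2905, 882 and 728 CPM (log2 change 7.49 ± 1.26, SE, adjusted p = 0.0333), and its blank libraries differed among themselves by a wide factor, with blank 2 the highest. Egr4 was close to absent in blank, at 0, 0.211 and 0.441 CPM, and at 25.2, 16.8 and 29.9 CPM after treatment (log2 change 6.80 ± 1.06, SE, adjusted p = 0.0258). Egr1, the founding member, did not pass: it was at 161, 55.7 and 1429 CPM in blank and 7342, 5078 and 4330 CPM in DNP-HSA+SiO2, with a log2 change of 3.35 ± 0.97 (SE) and adjusted p = 0.177. Egr1 already varied widely among the blank libraries.

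Among the partners that make the AP-1 complex, Fosl2 rose from 48.5, 69.3 and 78.2 CPM to 1746, 1644 and 1058 CPM (log2 change 4.50 ± 0.49, SE, adjusted p = 0.00418) and Fosb from 239, 50.8 and 346 CPM to 5043, 6200 and 6786 CPM (log2 change 4.83 ± 0.71, SE, adjusted p = 0.0201). Jun had a log2 change of 3.96 and missed the threshold at adjusted p = 0.0507, and Junb and Fos stood at 2.42 and 2.31 with adjusted p of 0.181 and 0.489. Fos, the first-wave gene of the family, was at 96.7, 6.66 and 499 CPM in blank and 1760, 664 and 562 CPM in treated cells, and its blank libraries ranged over more than 10 times. The other risers of the list were Csrnp1, a nuclear protein that binds DNA, from 24.3 ± 4.77 to 601 ± 309 CPM (mean ± SD, n = 3), the small Maf factor gene Maff, from 1.64 ± 1.03 to 92.1 ± 64.8 CPM, the Krüppel-like factor genes Klf6, from 254 ± 88.2 to 1698 ± 495 CPM, and Klf4, from 1.34 ± 0.798 to 14.1 ± 2.33 CPM, and Nfil3, a bZIP repressor, from 3.33 ± 0.438 to 67.8 ± 50.8 CPM. Their log2 changes were 4.63, 5.82, 2.74, 3.39 and 4.34 with adjusted p of 0.0201, 0.0338, 0.0347, 0.0475 and 0.0475. Klf10 was the single member below 0, at -0.15 (adjusted p = 0.941). Members named here and below that did not pass were in part chosen after their values were seen.

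**Figure D1:**
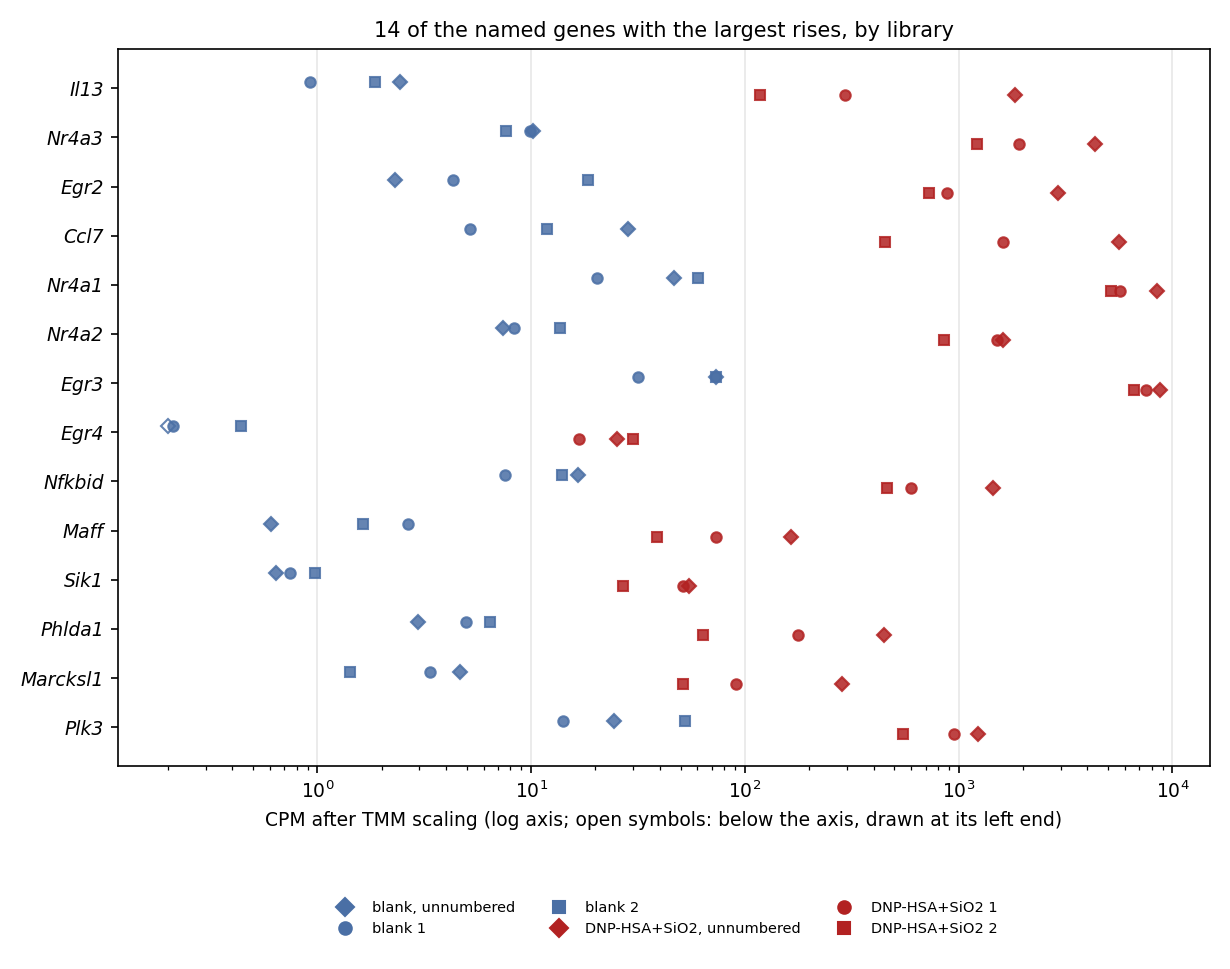
Level of 14 of the named genes with the largest rises in each of the 6 libraries, as CPM after TMM scaling on a log axis; blue symbols are blank and red symbols DNP-HSA+SiO2, with a diamond for the library without a number, a circle for 1 and a square for 2. No red symbol lies at or left of a blue one in any row, and Il13 in DNP-HSA+SiO2 spreads from 118 to 1833 CPM while Egr3 stays between 6595 and 8754 CPM.

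Promoters of some of the risen genes are given because several hold short sequences known to bind the factors that the MAP kinase, calcium and NF-κB routes act on. RefSeq windows (GRCm38.p6) matched 49 of the 71 risen genes, with 68 windows in all, and the 250 bases before each start were searched on both strands. The cAMP response element, TGACGTCA, was in 5.88% of the windows of risen genes and in 2.65% of the 11301 windows of all genes tested. The serum response element was in 7.35% against 1.15%, but those windows belong to only 2 genes, Dusp5 and Egr2, and 3 of the 4 windows of Egr2 overlap and share 1 element. The κB site was in 13.2% against 4.50% and was found in 8 of the 49 genes, the core of the antioxidant response element, TGACNNNGC, in 23.5% against 11.9%, the AP-1 site, TGANTCA, in 4.41% against 4.46%, and the EGR site, GCGTGGGCG, in 1.47% against 1.08%. A pair of facing GAA units, GAANNTTC, which is part of the heat shock element, was in 5.88% against 4.87%, and TATAAA in 8.82% against 6.22%. The antioxidant core and the AP-1 site can overlap, as can the antioxidant core and other sequences that start with TGAC. A match describes the letters and says nothing of binding. In the 5 windows that follow, written 5′ to 3′ on the strand of the gene, capitals mark serum response elements in Dusp5 and Egr2, the EGR site and the cAMP response element in Maff, κB sites and the cAMP response element in Nfkbid, and the cAMP response element in Ppp1r15a.
Dusp5, chr19:53528895-53529144, plus strand: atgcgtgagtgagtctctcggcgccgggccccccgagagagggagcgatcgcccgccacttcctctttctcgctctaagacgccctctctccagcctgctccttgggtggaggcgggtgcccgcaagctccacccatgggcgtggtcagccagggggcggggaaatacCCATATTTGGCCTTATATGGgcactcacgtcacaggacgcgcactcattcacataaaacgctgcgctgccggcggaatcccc
Egr2, chr10:67537619-67537868, plus strand: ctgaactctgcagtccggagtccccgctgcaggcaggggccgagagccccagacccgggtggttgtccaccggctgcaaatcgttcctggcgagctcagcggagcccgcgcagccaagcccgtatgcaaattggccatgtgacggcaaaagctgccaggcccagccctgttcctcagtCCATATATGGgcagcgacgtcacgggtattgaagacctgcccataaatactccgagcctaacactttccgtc
Maff, chr15:79347270-79347519, plus strand: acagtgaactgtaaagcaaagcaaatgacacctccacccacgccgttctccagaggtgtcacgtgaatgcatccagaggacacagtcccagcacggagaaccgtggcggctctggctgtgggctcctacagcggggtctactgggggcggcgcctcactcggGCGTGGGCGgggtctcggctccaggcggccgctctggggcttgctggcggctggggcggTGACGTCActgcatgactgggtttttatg
Nfkbid, chr7:30422156-30422405, plus strand: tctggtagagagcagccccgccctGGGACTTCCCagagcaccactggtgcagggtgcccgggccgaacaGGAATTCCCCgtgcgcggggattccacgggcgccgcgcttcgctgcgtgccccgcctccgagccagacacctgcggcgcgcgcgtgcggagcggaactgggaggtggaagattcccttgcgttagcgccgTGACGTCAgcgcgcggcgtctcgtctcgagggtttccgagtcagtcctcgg
Ppp1r15a, chr7:45526269-45526518, minus strand: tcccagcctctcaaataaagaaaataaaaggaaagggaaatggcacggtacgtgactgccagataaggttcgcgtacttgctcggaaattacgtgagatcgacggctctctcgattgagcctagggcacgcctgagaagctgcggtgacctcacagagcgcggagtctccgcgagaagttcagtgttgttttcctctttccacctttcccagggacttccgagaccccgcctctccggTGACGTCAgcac

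The 2 serum response elements of Dusp5 stand side by side, starting 82 and 72 bases before the start of the transcript, and the one in Egr2 starts 72 bases before it. In Nfkbid the κB sites start 226 and 181 bases and the cAMP response element 51 bases before the start. Those of the cAMP response element in Maff and Ppp1r15a are nearer, at 29 and 12 bases. The log2 changes of these 5 genes ran from a log2 change of 2.40 for Ppp1r15a to 7.49 for Egr2.

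Genes of MAP kinase phosphatases also rose. The dual-specificity phosphatases, which remove the activating phosphates from MAP kinases, had 9 of 10 members measured, of which 3 rose and 0 fell, with a median log2 change of 3.49. Dusp4, a nuclear phosphatase, was at 41.1, 30.5 and 42.6 CPM in blank and 1322, 865 and 445 CPM in DNP-HSA+SiO2 (log2 change 4.53 ± 0.61, SE, adjusted p = 0.0154). Dusp5, which acts on nuclear ERK, rose from 5.01, 4.49 and 2.62 CPM to 134, 45.95 and 56.5 CPM (log2 change 4.29 ± 0.80, SE, adjusted p = 0.0475). Dusp10, whose product prefers p38 and JNK, rose from 2.50, 2.15 and 2.50 CPM to 22.9, 13.8 and 8.82 CPM (log2 change 2.67 ± 0.51, SE, adjusted p = 0.0494). Treated libraries lay above the blank ones in all 3 genes, and the unnumbered one was the highest in each. Dusp6, a cytoplasmic ERK phosphatase, was at 1129, 323 and 237 CPM against 33.05, 8.62 and 38.8 CPM and missed the threshold at adjusted p = 0.0513. No gene passed in the list of ERK feedback inhibitors (7 of 9 tested, 0 rose, 0 fell, median 1.06), although Spry1 had a log2 change of 6.47 ± 1.25 (SE) at adjusted p = 0.0507. Its most expressed members were Spred1, Nab2 and Nab1, with log2 changes of 0.72, 1.06 and 0.53 and adjusted p of 0.419, 0.2 and 0.436. No gene of the MAP kinase cascade list passed: 26 of 27 were tested, and the median was 0.12. The largest difference was that of Map3k8, a kinase upstream of ERK, at 1.57, 0.899 and 1.59 CPM in blank and 311, 48.8 and 11.8 CPM in DNP-HSA+SiO2 (log2 difference 6.51 ± 1.304, SE, adjusted p = 0.0551). Its groups did not overlap, but the treated libraries spread widely. The most expressed of them, Grb2, Map2k3 and Mapk3, stood at -0.40, 1.09 and -0.16 with adjusted p of 0.763, 0.21 and 0.914.

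Genes of secreted mediators had some of the largest changes and wide spreads. Il13, the type 2 cytokine of allergic airway disease, was at 2.45, 0.927 and 1.87 CPM in blank and 1833, 294 and 118 CPM in DNP-HSA+SiO2 (log2 change 8.74 ± 1.54, SE, adjusted p = 0.0352; chr11:53631324-53634702). Treated libraries differed from each other by more than 10 times, yet the lowest was 48.2 times the highest blank library. Ccl7, a chemokine that attracts monocytes and eosinophils, rose from 28.4, 5.20 and 11.9 CPM to 5594, 1609 and 454 CPM (log2 change 7.40 ± 1.27, SE, adjusted p = 0.0338). Both genes were highest in the unnumbered treated library and lowest in library 2. Il1b, the inflammasome-dependent cytokine gene, rose with a narrower spread, from 8.33, 17.8 and 10.3 CPM to 87.2, 54.7 and 52.3 CPM (log2 change 2.42 ± 0.46, SE, adjusted p = 0.0497). Nlrp3, which codes for the sensor protein of that inflammasome, rose from 16.8, 31.3 and 32.1 CPM to 682, 331 and 225 CPM (log2 change 3.95 ± 0.58, SE, adjusted p = 0.0201). Of the inflammasome list 9 of 12 genes were tested, these 2 rose, 0 fell, and the median was 0.18.

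Further cytokine and chemokine genes were higher without passing. Of the cytokines 14 of 25 were tested, 2 rose and 0 fell, with a median log2 change of 3.93. At an unadjusted p under 0.05, 11 were higher, beside 6.95% of all genes tested. Of the chemokines 10 of 17 were tested, 1 rose, 0 fell and 5 were higher at that level, with a median of 2.28. A gene close to 0 in blank could enter these lists only through treated libraries, so the medians describe the genes measured and support nothing by themselves. Tnf was at 19.8, 21.2 and 32.03 CPM in blank and 7744, 849 and 256 CPM in DNP-HSA+SiO2 (log2 change 6.92 ± 1.59, SE, adjusted p = 0.0883). Il6 was at 34.05, 15.1 and 39.2 CPM and 2495, 610.0 and 144 CPM (adjusted p = 0.0808). Ccl3 was at 46.3, 17.1 and 23.4 CPM and 7407, 1039 and 334 CPM (adjusted p = 0.0726). In these genes the unnumbered treated library stood far above the other two, and treated libraries differed by more than 10 times in each. Il3 had no counts in the 3 blank libraries and in DNP-HSA+SiO2 2 and was at 59.6 and 2.82 CPM in the other treated libraries (adjusted p = 0.276). Ptgs2, the inducible cyclooxygenase, was at 2.01, 12.03 and 2.19 CPM and 2476, 525 and 66.01 CPM (adjusted p = 0.0813), while the leukotriene genes Alox5 and Alox5ap had log2 changes of 0.00 and -0.03. In that list 10 of 13 enzymes were tested and none passed, with a median of 0.14. Of the growth factors 7 of 12 were tested and none passed (median 1.40). Areg, an EGF receptor ligand, was at 0, 0.154 and 0 CPM in blank and 32.9, 1.17 and 0.218 CPM in DNP-HSA+SiO2 (log2 difference 7.76 ± 2.66, SE, adjusted p = 0.246). Hbegf, another such ligand, was at 0.606, 1.15 and 0.5 CPM and 192, 59.98 and 18.1 CPM (log2 difference 6.90 ± 1.48, SE, adjusted p = 0.0688). The groups did not overlap for either gene. Differences were smaller for the vascular growth factor genes, with Vegfa, Vegfb and Vegfc at 2.38, -0.82 and 1.40 and adjusted p of 0.216, 0.411 and 0.339.

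**Figure D2:**
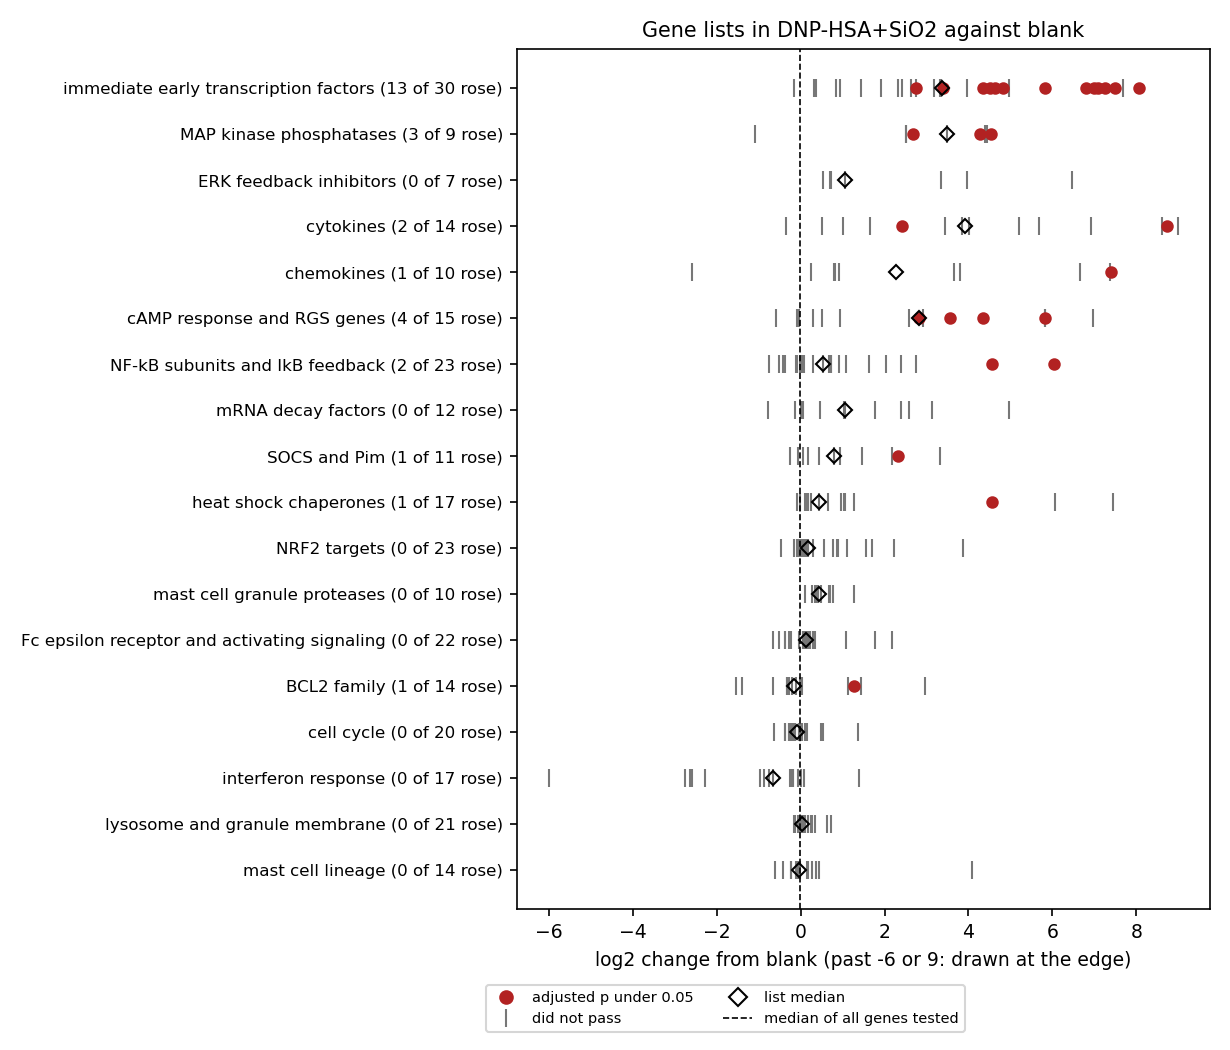
Log2 change in DNP-HSA+SiO2 against blank for the tested members of 18 gene lists; red circles passed at an adjusted p under 0.05, grey ticks did not, open diamonds are list medians and the dashed line is the median of all 12862 genes. The medians of immediate early transcription factors, MAP kinase phosphatases and cytokines lie above 3, those of the mast cell lineage, cell cycle and lysosome lists near 0, and that of the interferon response at -0.66.

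Of NF-κB genes, those for 2 nuclear IκB proteins rose. In the list of NF-κB subunits and IκB feedback genes 23 of 24 were tested, 2 rose and 0 fell, with a median of 0.54. At an unadjusted p under 0.05, 11 were higher, beside 6.95% of all genes tested. The risers were the nuclear IκB genes Nfkbid, from 16.6, 7.54 and 14.01 CPM to 1441, 596 and 459.7 CPM (log2 change 6.03 ± 0.85, SE, adjusted p = 0.0192), and Nfkbiz, from 23.6, 33.7 and 51.05 CPM to 1579, 658 and 322 CPM (log2 change 4.56 ± 0.83, SE, adjusted p = 0.044). Both products act in the nucleus on NF-κB target genes, unlike the cytoplasmic inhibitor from Nfkbia, which stood at 1.63 (adjusted p = 0.183). Subunit genes Nfkb2, Rel and Nfkb1 had log2 changes of 1.09, 2.04 and 0.91 with adjusted p of 0.0593, 0.0902 and 0.208. Tnfaip3, which codes for the ubiquitin-editing brake A20, was an exception to the usual order of the treated libraries, being lowest in the unnumbered one: 72.95, 303 and 526 CPM, against 35.8, 44.4 and 54.98 CPM in blank (adjusted p = 0.084).

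Genes of the cAMP response and of adenosine receptors were another group with risers. Of 15 cAMP response and RGS genes tested (16 in the list), 4 rose and 0 fell, with a median of 2.82. Sik1, a kinase that CREB induces and that in turn restrains CREB coactivators, rose from 0.642, 0.744 and 0.971 CPM to 54.6, 51.3 and 26.9 CPM (log2 change 5.81 ± 0.94, SE, adjusted p = 0.029). Per1, a clock gene that also answers to cAMP (chr11:69095217-69109960), rose from 58.1, 44.98 and 79.7 CPM to 386, 509.8 and 392 CPM (log2 change 2.82 ± 0.27, SE, adjusted p = 0.00181), with the smallest SE of the rises above 2. Rgs2, which quenches signaling by Gq, rose from 215 ± 99.8 to 2523 ± 1310 CPM (mean ± SD, n = 3, adjusted p = 0.0348), and Nfil3 has been given above. The adenosine receptor genes Adora2a and Adora2b, both coupled to cAMP production, rose from 30.9, 31.6 and 25.6 CPM to 167, 255 and 163 CPM and from 19.1, 10.3 and 8.86 CPM to 143, 111 and 81.98 CPM, with adjusted p of 0.0291 and 0.025. Adora3, the adenosine receptor known for enhancing mouse mast cell degranulation, was at a log2 change of 1.76 ± 0.38 (SE) and did not pass (adjusted p = 0.0726). In the adenosine list 6 of 8 genes were tested, 2 rose, 0 fell and the median was 1.09. In the circadian clock list, all 14 genes were tested and Per1 alone rose, with a median of 0.08, and Per2, Bhlhe40 and Dbp stood at 0.93, 0.35 and -0.96 (adjusted p = 0.226, 0.496 and 0.289).

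Surface and cytokine-signaling genes gave single risers. Cd69, the early activation antigen, rose from 62.5, 23.3 and 74.6 CPM to 770.0, 644 and 328 CPM (log2 change 3.44 ± 0.60, SE, adjusted p = 0.0347), the only riser among 16 activation surface genes tested (20 in the list, 0 fell, median 0.81). Cish, a feedback inhibitor of STAT5 signaling, rose from 78.2, 91.8 and 217 CPM to 848, 648 and 452 CPM (adjusted p = 0.0494), the only one of 11 SOCS and Pim genes (0 fell, median 0.80), although Socs2 and Socs3 were near the threshold at adjusted p of 0.0558 and 0.0731. Cd93, a C-type lectin-like receptor and the most expressed riser in blank cells, went from 593 ± 85.2 to 2647 ± 1028 CPM (mean ± SD, n = 3, adjusted p = 0.0427). Notch3, a receptor of the Notch pathway, rose from 1.03, 0.646 and 1.44 CPM to 14.02, 17.3 and 7.24 CPM (adjusted p = 0.0201).

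The chaperone and stress lists held 1 riser each. Dnajb1, a cochaperone of HSP70 and a classic heat shock gene, rose from 65.3, 78.2 and 83.4 CPM to 3332, 1097 and 897 CPM (log2 change 4.55 ± 0.84, SE, adjusted p = 0.0457). It was the only riser among 17 of 19 heat shock genes tested (0 fell, median 0.43), and Hspa1a and Hspa1b, near-identical copies whose reads may be split between them, stood at 7.44 and 6.06 with adjusted p of 0.0761 and 0.0808. Dnajb9, an endoplasmic reticulum cochaperone, rose from 28.4, 38.9 and 46.4 CPM to 370.3, 235 and 123 CPM (adjusted p = 0.0479), alone among 20 unfolded protein response genes (0 fell, median 0.15). Ppp1r15a, which codes for the stress-induced phosphatase subunit that restores translation, rose from 88.2, 71.5 and 216 CPM to 724, 830.5 and 436 CPM (adjusted p = 0.0494), alone among 18 integrated stress response genes (0 fell, median 0.09), with Atf4 at 1.33 ± 0.28 (SE, adjusted p = 0.0647). These 3 risers had lower levels in library 2 of the treated group than in the other treated libraries.

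Mcl1, the survival protein of the BCL2 family, rose from 290.5, 339.8 and 355 CPM to 751, 826 and 819.8 CPM, a small change with a small spread (log2 change 1.28 ± 0.21, SE, adjusted p = 0.029). Of the BCL2 family 14 of 17 genes were tested, Mcl1 rose, 0 fell and the median was -0.16. The death-promoting genes did not share a direction: Bcl2l11 was at 2.97 (adjusted p = 0.134), whereas Bbc3, Bmf and Bid were at -1.41 ± 0.43, -1.55 ± 0.53 and -0.67 ± 0.19 (SE), each with libraries that did not overlap and none past the threshold (adjusted p = 0.194, 0.25 and 0.17). Plk3, a stress-response kinase, rose from 24.4, 14.1 and 52.7 CPM to 1225, 946 and 547 CPM (log2 change 4.90 ± 0.69, SE, adjusted p = 0.0192), 1 of 15 tested genes of p53 and growth arrest (0 fell, median -0.19). Cited2, a transcriptional coregulator of the quiescence list (20 tested, 1 rose, 0 fell, median 0.02), rose from 229, 210.2 and 233 CPM to 787, 722 and 613 CPM (adjusted p = 0.0277). Slc2a3, a glucose transporter gene, rose from 267, 361 and 306 CPM to 634, 954 and 907 CPM (adjusted p = 0.0333), alone among 17 genes of glucose uptake and glycolysis (0 fell, median 0.13). The log2 changes of Cited2 and Slc2a3 were 1.66 and 1.42, with no overlap of the groups.

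Further risers were in no list. Those outside the 15 largest rises were named after their values were seen. Phlda1, a pleckstrin homology-like protein gene, rose from 2.96, 4.99 and 6.42 CPM to 446, 178 and 63.8 CPM, and Marcksl1, a relative of the actin-binding protein MARCKS, from 4.63, 3.37 and 1.43 CPM to 284, 90.7 and 51.2 CPM, with adjusted p of 0.0475 and 0.0348. Kdm6b, a histone demethylase gene, rose from 112 ± 36.6 to 826 ± 278 CPM, Mycn, a MYC-family oncogene, from 5.26 ± 0.415 to 102 ± 63.8 CPM, and Etv3, an ETS-family repressor, from 58.4 ± 7.76 to 177 ± 28.4 CPM (mean ± SD, n = 3, adjusted p = 0.0201, 0.0283 and 0.0333). Tob2, an antiproliferative factor, rose from 83.4, 98.2 and 95.4 CPM to 261, 352 and 337 CPM (log2 change 1.78 ± 0.22, SE, adjusted p = 0.0107). Plekho2, a pleckstrin homology domain protein gene, rose from 213, 248 and 216 CPM to 902, 796 and 926 CPM (log2 change 1.96 ± 0.25, SE, adjusted p = 0.0114). In both genes the libraries of each group lay close together. Tagap, a GTPase-activating protein gene, rose from 14.3 ± 3.98 to 301 ± 202 CPM, Prkd2, a protein kinase D gene, from 37.9 ± 9.94 to 124 ± 23.1 CPM, Siah2, a ubiquitin ligase gene, from 10.2 ± 0.957 to 31.3 ± 2.39 CPM and Tnfaip2 from 38.7 ± 7.13 to 180.5 ± 46.4 CPM, with adjusted p of 0.0475, 0.0479, 0.0333 and 0.0195. The log2 changes of Arl5b, Cass4, Frmd4b, Fam110c, Spty2d1, Epm2aip1, Tsc22d2, Map9 and Ap4b1 ran from 2.02 for Ap4b1 to 4.10 for Arl5b. Mab21l1 and Oit3 stood at 1.37 and 1.21, the latter being the smallest of the 71 rises. Arl5b, Kdm6b, Tagap and Notch3 overlap tested genes on the other strand, Nsun6, Kdm6bos, E430024P14Rik and Gm17276, with log2 changes of 1.52, 3.20, 4.05 and 2.25, none of which passed.

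Noncoding transcripts made up 9 of the 71 rises. The host transcript of the microRNAs miR-132 and miR-212, 1700016P03Rik, rose from 0.557, 0.716 and 1 CPM to 90.96, 42.4 and 23.2 CPM (log2 change 6.11 ± 0.99, SE, adjusted p = 0.029). Mir132 itself, counted at its precursor inside this transcript, rose from 0.0605, 0.225 and 0.265 CPM to 5.19, 6.84 and 3.74 CPM (adjusted p = 0.0475). The libraries were made from polyadenylated RNA, so mature microRNAs were not measured, and reads cannot be divided between these overlapping records. The mature 3′ arms from RefSeq (GRCm38.p6) are given because both share the seed, bases 2 to 8, in capitals.
mmu-miR-132-3p, chr11:75173723-75173744, plus strand: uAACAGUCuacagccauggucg
mmu-miR-212-3p, chr11:75173443-75173464, plus strand: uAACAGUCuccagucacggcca

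Gm12167, annotated as antisense, had no counts in blank and was at 1.03, 2.53 and 0.814 CPM after treatment, at least 33.2-fold higher against a floor of 3 counts per blank library. Gm15635, antisense to Slco2b1, rose from 0.0484, 0.154 and 0.265 CPM to 17.7, 18.6 and 7.39 CPM (log2 change 6.55 ± 0.79, SE, adjusted p = 0.00859). Gm47917 is antisense to Man1a, and Gm38357 and Gm43430 lie within Noct and Nfkb1 on the same strand. The libraries keep strand, but no source used here says whether the counting used it, so reads of these records cannot be told apart from those of the genes they overlap. The other two were Gm46210 and Gm50217, at log2 changes of 3.05 and 4.82.

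The 3 genes that fell were expressed at low levels and changed by about 1.6 on the log2 scale. Pdik1l (chr4:134275002-134287895), a kinase gene, was at 20.4, 16.2 and 15.9 CPM in blank and 5.13, 6.39 and 6.13 CPM in DNP-HSA+SiO2 (log2 change -1.57 ± 0.27, SE, adjusted p = 0.0338). Tmem81 (chr1:132506230-132508639), a transmembrane protein gene, was at 6.83, 6.50 and 6.90 CPM in blank and 2.13, 2.01 and 2.40 CPM in treated cells (log2 change -1.63 ± 0.29, SE, adjusted p = 0.0354). Bcdin3d (chr15:99470079-99474730), which codes for an RNA methyltransferase, was at 14.1, 10.6 and 14.01 CPM and 3.27, 5.28 and 3.81 CPM (log2 change -1.65 ± 0.31, SE, adjusted p = 0.0475). In each gene every treated library lay below every blank library. None of the 3 passed when any 1 of the 6 libraries was left out, with adjusted p between 0.0504 and 0.213. The next 7 by p-value among genes with libraries that did not overlap, which did not pass, were Zfp217, Tmem186, Etaa1, Smug1, Zfp759, Pheta2 and Zfp429. Zfp217, a zinc finger repressor, was at 84.8, 74.5 and 77.2 CPM in blank and 23.5, 23.98 and 27.3 CPM in DNP-HSA+SiO2 (log2 change -1.66 ± 0.32, SE, adjusted p = 0.0507). Etaa1, an activator of the DNA damage kinase ATR, and Smug1, a uracil-DNA glycosylase gene, stood at -1.67 ± 0.34 and -1.20 ± 0.25 (SE, adjusted p = 0.058 and 0.0617). Zfp759 and Zfp429, zinc finger genes, were at -2.66 ± 0.56 and -1.41 ± 0.30 (SE), and Pheta2 and Tmem186 at -2.58 ± 0.55 and -1.13 ± 0.23 (SE).

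**Figure D3:**
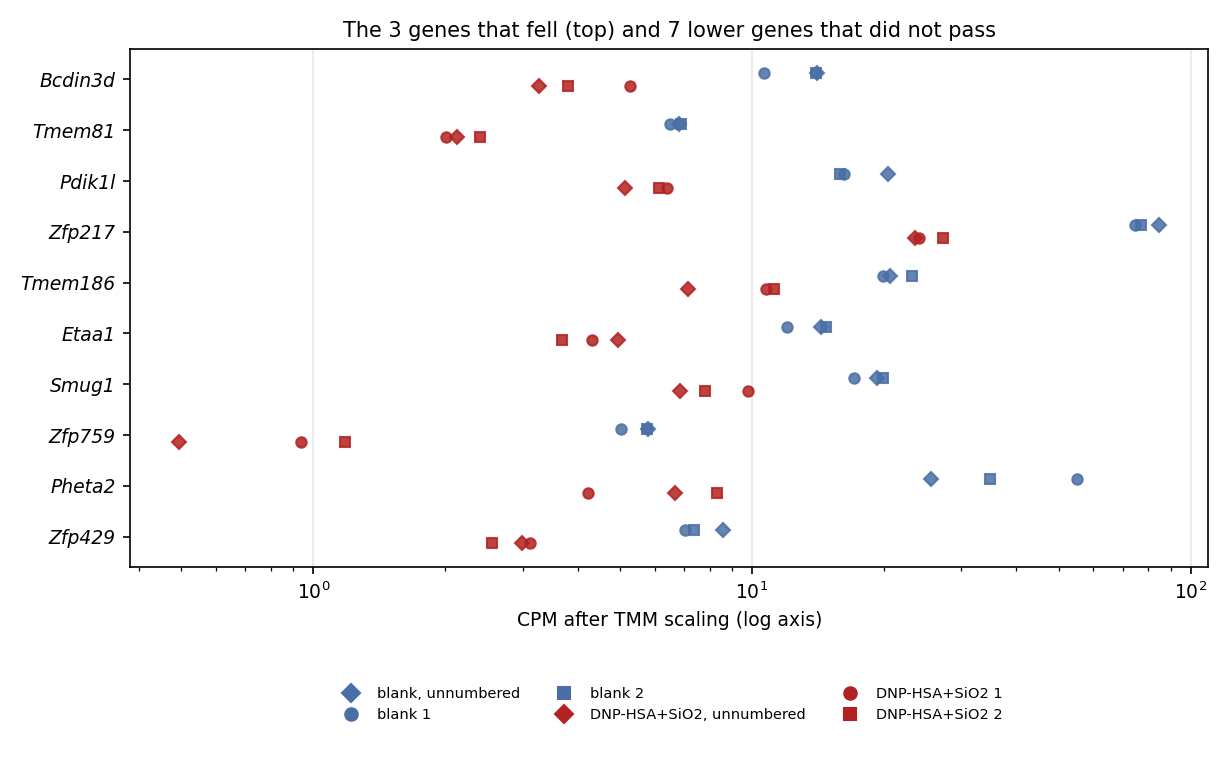
Level of the 3 genes that fell, the upper 3 rows, and of the 7 lower genes that did not pass, in each of the 6 libraries as CPM on a log axis; colours and symbols are those of the plot of rises. Blue and red symbols do not overlap in any row, with Tmem81 at 6.50 to 6.90 CPM in blank and 2.01 to 2.40 CPM in DNP-HSA+SiO2.

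Zinc finger genes recurred among the lower genes, a grouping made by symbol after the values were seen. Of 271 tested genes with a numbered Zfp, Zscan or Zkscan symbol, most of which code for DNA-binding proteins with C2H2 fingers, 0 fell and 0 rose by the edgeR test. At an unadjusted p under 0.05, 84 were lower (31.0%) and 9 higher, beside 5.08% lower and 6.95% higher over all genes. The libraries did not overlap and were lower for 102 of them (37.6%), beside 8.88% of all genes. Their median log2 change was -0.50, and 226 of the 271 were below 0. Zfp128 was at 13.99, 10.1 and 12.3 CPM in blank and 1.64, 2.88 and 3.42 CPM in DNP-HSA+SiO2 (adjusted p = 0.0768), Zfp551 at 6.41, 4.70 and 6.02 CPM and 0.361, 0.955 and 1.63 CPM (adjusted p = 0.101), and Zscan12 at 6.04, 7.15 and 7.22 CPM and 1.66, 2.14 and 2.14 CPM (adjusted p = 0.0889). By level, 26 of 58 at a mean below 5 CPM (44.8%) were lower at an unadjusted p under 0.05 beside 5.83% of all 2764 genes in that range, and 48 of 120 at 5 to 20 CPM beside 8.70% of 3286. At 20 to 100 CPM it was 10 of 86 (11.6%) beside 3.96% of 4773, and at 100 CPM and above 0 of 7 beside 0.834% of 2039, with a median log2 change of 0.05. Many of these genes are near copies of each other, so counts may be shared between them. Without any 1 of the 6 libraries 59 to 80 of the 271 were lower at that level, and 57 among the libraries numbered 1 and 2 alone. With a filter at an FPKM of at least 5, 26 of 138 were lower at that level (18.8%), beside 4.31% of all genes. The family median was then -0.325. A gene of low level could pass the main filter through the blank libraries alone, so shares at low levels describe only the genes measured. Scaling by library totals moved the median of all genes to -0.35 and that of the family to -0.83. DNP-HSA alone and SiO2 alone, measured against the same blank libraries, had family medians of -0.43 and -0.34.

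**Figure D4:**
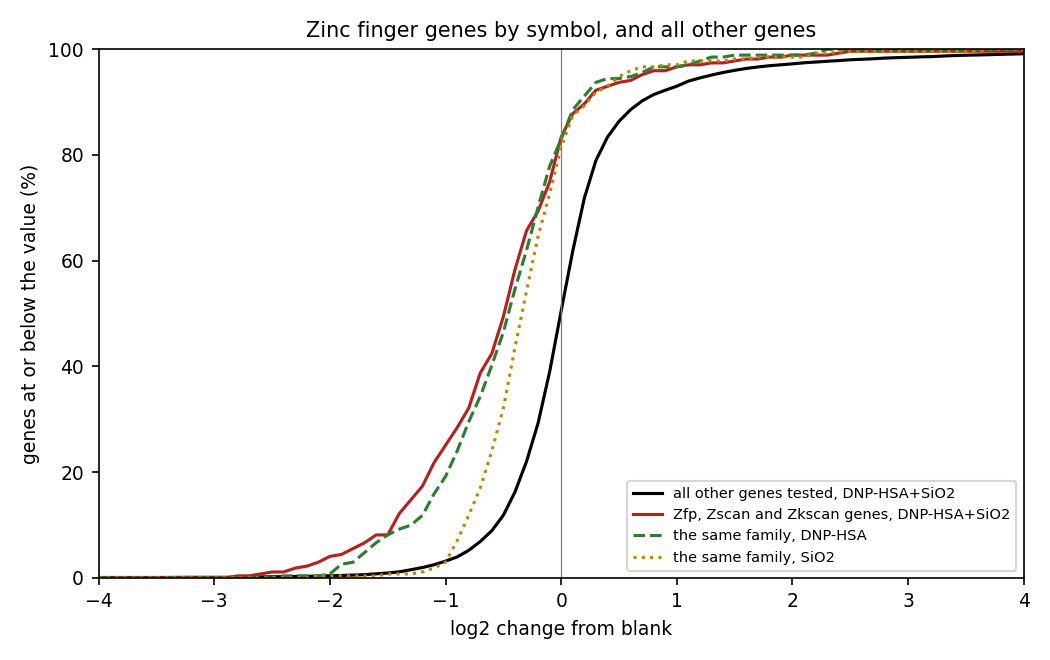
Share of genes at or below each log2 change from blank for the 271 Zfp, Zscan and Zkscan genes in DNP-HSA+SiO2 (red), DNP-HSA (green, dashed) and SiO2 (gold, dotted), and for all other genes tested in DNP-HSA+SiO2 (black). The red curve lies left of the black one, with a median of -0.50 for the family, and all treatments share the 3 blank libraries.

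Interferon-response genes were the list with the lowest median. Of 20 genes 17 were tested, 0 rose and 0 fell, and the median was -0.66. At an unadjusted p under 0.05, 5 were lower and 1 higher, beside 5.08% lower and 6.95% higher over all genes tested. Ifit2, an interferon-induced RNA-binding protein gene, was at 8.29, 8.55 and 9.25 CPM in blank and 0.437, 3.39 and 0.378 CPM in DNP-HSA+SiO2 (log2 change -2.64 ± 0.88, SE, adjusted p = 0.235). Ifit3 had no counts in the 3 treated libraries and was at 0.0848, 1.66 and 2.75 CPM in blank, at least 25.7-fold lower against a floor of 3 counts per treated library, with adjusted p = 0.227. Stat2, a factor of the interferon pathway, was at 31.4, 27.8 and 27.3 CPM and 16.1, 16.7 and 18.5 CPM (adjusted p = 0.211). Bst2, a highly expressed member, stood at 0.08. The list median was -0.07 in DNP-HSA alone and -0.10 in SiO2 alone.

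No gene of the mast cell lists passed. In the granule protease list 10 of 12 genes were tested and none passed, with a median of 0.44. Cpa3 was at 11540, 12990 and 11540 CPM in blank and 17300, 14280 and 11750 CPM in DNP-HSA+SiO2, Cma1 at 4273, 12230 and 8287 CPM and 5596, 9591 and 11640 CPM, and the log2 changes were 0.27 ± 0.24 and 0.11 ± 0.52 (SE). Gzmb was at 1634, 1733 and 1808 CPM and 6846, 3553 and 2000 CPM (log2 change 1.26 ± 0.47, SE, adjusted p = 0.291), with the unnumbered treated library the highest. Among genes of storage, 8 of 11 were tested, none passed and the median was 0.15, and Hdc, the enzyme that makes histamine, was at 63.01, 24.8 and 12.8 CPM in blank and 1315, 306 and 94.6 CPM in treated cells (log2 change 4.09 ± 1.11, SE, adjusted p = 0.144). Srgn, Tph1 and Slc18a2, the most expressed genes of that list, had log2 changes of 0.97, -0.03 and 0.63. The IgE receptor and its signaling genes did not pass either (22 of 22 tested, median 0.13), with the receptor chains Fcer1a and Ms4a2 at 0.15 ± 0.21 and -0.23 ± 0.27 (SE), Lat2 at 0.29 ± 0.25 and the adaptor Lcp2 at 1.08 ± 0.26 (adjusted p = 0.107). The lineage list had a median of -0.03 over 14 genes. The genes of highest level in the 6 libraries, mt-Co1, Cpa3, Cma1, Ftl1 and Gm22133, which overlaps Ftl1, had log2 changes of 0.44, 0.27, 0.11, 0.87 and 0.84, none of which passed.

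Other lists had no called member. No gene passed among the 23 NRF2 targets tested (median 0.18), 16 antioxidant enzymes (0.15), 4 metallothionein and zinc transport genes (0.03), 20 cell cycle genes (-0.09), 21 sterol genes (0.27), 21 lysosome and granule membrane genes (0.04), 15 SNARE and exocytosis genes (0.00), 18 inhibitory signaling genes (0.08), 17 store-operated calcium and NFAT genes (0.00) and 12 mRNA decay factors (1.05). The mRNA decay factors, which shorten the life of cytokine transcripts, stood above the rest, with Btg1, Zfp36l1 and Zfp36l2 at 1.78, 2.59 and 1.03 and adjusted p of 0.0558, 0.0608 and 0.177. Rcan1, a calcineurin inhibitor and NFAT target, was at 18.9, 32.6 and 21.7 CPM and 1615, 348 and 92.9 CPM (adjusted p = 0.147), and the NRF2 target Srxn1 at 97.9, 118 and 134 CPM and 3254, 1245 and 595 CPM (adjusted p = 0.0534). Ftl1, Fth1 and Sqstm1 had log2 changes of 0.87, 0.01 and 0.88. Of 95 ribosomal protein genes and 37 proteasome subunit genes none passed, with medians of 0.22 and 0.13.

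The design also asks whether the combined treatment differs from either agent alone, and a lack of calls would not show that they are alike. No gene passed between DNP-HSA+SiO2 and DNP-HSA in either direction with edgeR (0.0% and 0.0%), with 41 higher and 42 lower at an unadjusted p under 0.05, and none with limma. DESeq2 called 2 higher, Abl1 and Gm14048, and 2 lower, Commd1b and Ifit3. Its log2 difference from DNP-HSA was 1.37 for Abl1 and -12.2 for Commd1b. For Gm14048 the size depended on the tool, at 23.6 with DESeq2 and 10.0 with edgeR. Levels of Commd1b and Gm14048 per library are not given here, so their sizes are not read as measured changes. Ifit3 had no counts in DNP-HSA+SiO2 and so no measured change. Against SiO2 alone again no gene passed in either direction with edgeR (0.0% and 0.0%), with 51 higher and 88 lower at an unadjusted p under 0.05, and none with limma, while DESeq2 called Abl1, Cdc14a and Gm14048 higher and Commd1b, Gm14414 and Ifit3 lower. Abl1, a tyrosine kinase gene named for having the smallest p in both, was at 60.9, 62.3 and 46.7 CPM in blank and 86.4, 103 and 147 CPM in DNP-HSA+SiO2, and its log2 difference by edgeR was 1.36 ± 0.25 (SE, unadjusted p = 0.000193) from DNP-HSA and 1.54 ± 0.25 (SE, unadjusted p = 6.94e-05) from SiO2.

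Against the same 3 blank libraries, DNP-HSA alone raised 27 genes (0.210%) and lowered 1, Pdik1l (0.00777%), and SiO2 alone raised 8 (0.0622%) and lowered 0 (0.0%). These comparisons share their controls with the combined treatment, so a likeness between them is no independent observation, and a gene called in only one of them is not thereby shown to differ. The log2 change of the combined treatment exceeded that of DNP-HSA for 65 of the 71 risers and that of SiO2 for all 71. The risers were chosen by their combined change, which by itself favours a larger combined value. Nothing is therefore read from these counts or from the medians that follow. The medians over these genes, chosen for the combined treatment, were 3.94 for DNP-HSA+SiO2, 3.22 for DNP-HSA and 3.05 for SiO2. Differences for single genes had wide intervals. For Il13 the combined treatment stood above DNP-HSA by 1.304 (95% interval -1.26 to 3.87) and above SiO2 by 0.22 (95% interval -2.31 to 2.75) on the log2 scale. For Nr4a1 these differences were 0.22 (95% interval -1.08 to 1.52) and 0.93 (95% interval -0.38 to 2.24), and for Dusp4 0.33 (95% interval -0.87 to 1.54) and 0.32 (95% interval -0.88 to 1.53). Fosb was level with DNP-HSA, at -0.02 (95% interval -1.41 to 1.36), and above SiO2 by 1.79 (95% interval 0.37 to 3.22). Arl5b, a small GTPase gene, differed more from both, by 1.75 (95% interval 0.31 to 3.18) and 2.32 (95% interval 0.85 to 3.78). Tmem81, which fell, had differences of -0.45 (95% interval -1.10 to 0.20) and -1.11 (95% interval -1.77 to -0.46). None of these pairs passed the adjusted test. Of the 71 risers, 1 had an unadjusted p under 0.05 against DNP-HSA and 11 against SiO2. Over all genes tested, 0.319% were higher and 0.327% lower against DNP-HSA at that level, and 0.397% and 0.684% against SiO2. Shares this low lie below what p-values under 0.05 give where nothing differs, so the p-values ran high in these comparisons. The reason was not tested. The choice of the risers bears on their counts here too.

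**Figure D5:**
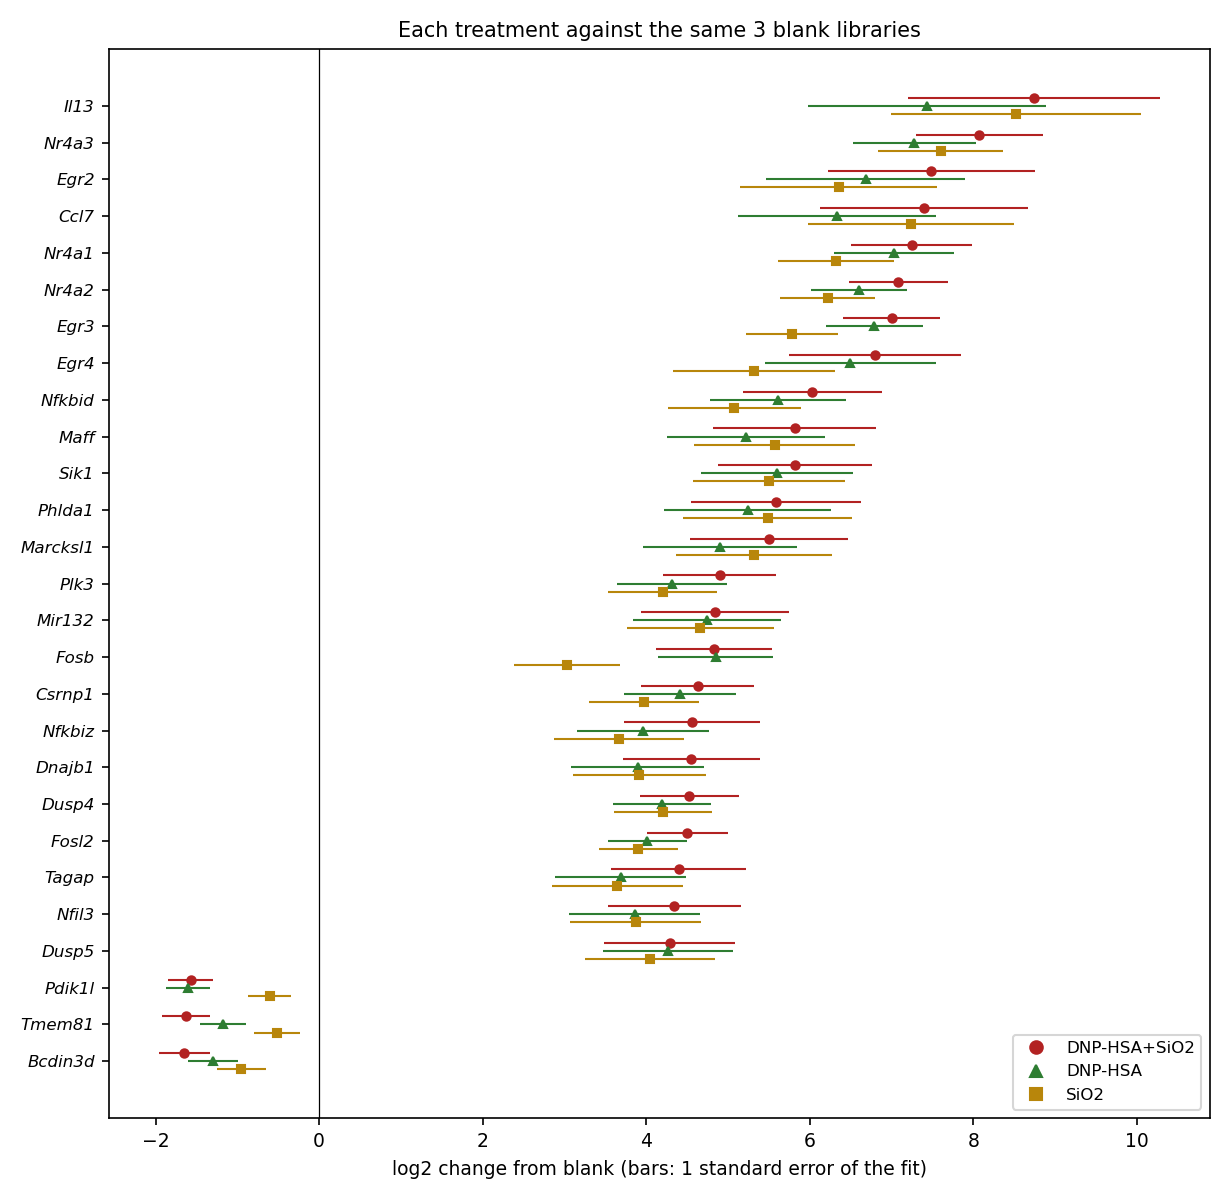
Log2 change from blank, with 1 standard error as bars, of 24 risen genes with assigned names and the 3 genes that fell, for DNP-HSA+SiO2 (red circles), DNP-HSA (green triangles) and SiO2 (gold squares). For Fosb the bars of DNP-HSA+SiO2 and DNP-HSA overlap and that of SiO2 lies lower, as it stands at 4.83, 4.85 and 3.03, and the 3 sets share the blank libraries.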

How the data were processed

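RNA from BMMCs was sequenced by the authors in 4 groups of 3 libraries. The deposited table holds, per isoform and library, FPKM values and estimated counts made by the authors; within a library, multiplying FPKM by isoform length and 1 fixed factor and rounding up gives the estimated count. Tools listed by the submitters' processing notes are HISAT2 2.0.4, cutadapt 1.9, StringTie 1.3.4d, edgeR and DESeq2. With the genome build not given in the sources used here, positions were compared with an annotation: isoform positions equal GENCODE M21 (GRCm38) for 84070 of 84846 isoforms. Since the unit is an estimated count, the precision is not that of whole reads.

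Isoforms were summed per gene identifier. A gene was tested if 3 or more of the 12 libraries had a summed FPKM of 1 or higher. One edgeR 4.0.16 quasi-likelihood fit (TMM, trended and robust) held all 12 libraries with group as its only term, and p-values were adjusted by Benjamini-Hochberg, with a threshold of 0.05. SE is the log2 change divided by the square root of F, and intervals (95%) use a t distribution with 8 degrees of freedom. Alternatives were limma 3.58.1 on log2(FPKM + 1) and log2(FPKM + 0.1), DESeq2 1.42.0, other scalings and filters, and leaving out libraries. TMM factors ran from 0.808 to 1.22 in the 6 libraries. Named genes were up to 15 of the largest passing rises and of the falls, with assigned symbols and no overlap between libraries, lower genes filled up to 10 by p-value, and up to 4 members per list and direction, or the 3 most expressed where none passed. The genes, the 43 lists and the tests were chosen with earlier results of these data known. Some named genes are not reported here. The edgeR fit was tested on simulated data with independent libraries and the same fixed spread for all genes. That setting lacks the correlation between libraries of different groups seen here, so it checks the code and not the calls.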

Additional observations from a re-analysis of the deposited data

Results flagged for a closer look

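For 3 genes the effect of one agent depended on whether the other was present, by the interaction term of the edgeR fit over all 12 libraries. The interaction was -5.74 ± 0.70 for Nr4a2 (SE, adjusted p = 0.0442), -5.57 ± 0.70 for Egr3 (SE, adjusted p = 0.0442) and -6.81 ± 0.89 for Nr4a3 (SE, adjusted p = 0.0447), all on the log2 scale. Nr4a2 changed by 6.60 with DNP-HSA alone, 6.22 with SiO2 alone and 7.08 with both. Egr3 changed by 6.79, 5.78 and 7.00, and Nr4a3 by 7.28, 7.60 and 8.07, so the combined change was below the sum of the single ones, 12.8, 12.6 and 14.9, in each. Over all 12862 genes 232 terms were below 0 and 35 above 0 at an unadjusted p under 0.05. No other setting and no fit without a library was run for the interaction, so how far these calls depend on them is not known. The blank libraries enter both this term and the change that chose the risers, with opposite signs, so nothing is read from the sign of the term over the risers.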

How the results depend on the processing

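Compared with blank, DESeq2 called 444 higher and 148 lower genes, against 71 and 3 with edgeR, and a term for the unnumbered libraries gave 183 and 39. Without the 4 unnumbered libraries 19 rose. Leaving out 1 library at a time gave 7 to 142 higher and 0 to 3 lower genes. Lower genes numbered 12 with limma on log2(FPKM + 1), 9 on log2(FPKM + 0.1), 8 with library totals only and 7 with the replicate block, and higher genes 94 with that block, so the block did not move the count of rises by over 1.5 times. Deviations from the group means correlated at 0.614 for the unnumbered libraries of blank and DNP-HSA+SiO2. Libraries 1 and 2 did not match by number, at -0.092 for number 1 and -0.018 for number 2. Instead, blank 2 correlated best with DNP-HSA+SiO2 1 (0.598) and blank 1 with DNP-HSA+SiO2 2 (0.492). The block followed the label numbers, so its counts do not describe this crossed match. No fit used the crossed match, and the main fit held group only. Against DNP-HSA, DESeq2 called 2 higher and 2 lower, and against SiO2 3 and 3, and every other setting of edgeR or limma run on these comparisons called 0. DESeq2 also called 70 of the 71 risers and limma on log2(FPKM + 1) 58, and both called the 3 falls. None of the 71 risers, the 3 falls and the next 7 lower genes changed direction in any setting that tested it. The directions of the other genes named in the text were not followed across settings. Library totals moved the median log2 change of all genes to -0.35 and TPM to -0.39, beside -0.01 with TMM, and the split of calls to 86 higher and 8 lower.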
